A study of Mus musculus with 9 samples.

Results

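The 10 genes described here encode receptors of the tumour necrosis factor (TNF) receptor superfamily, among them CD30 (Tnfrsf8) and CD27 (Cd27), in mouse CD8+ T cells given different carbon sources. They were picked by gene symbol from the 20618 genes of the deposited tables: Tnfrsf8, Cd27, Tnfrsf9, Tnfrsf4, Tnfrsf18, Tnfrsf25, Tnfrsf1a, Tnfrsf1b, Tnfrsf10b and Fas. All 10 were found. The set was put together with differences between these libraries already known, so its differences between media are described with their errors and carry no p-value in the 2 comparisons that involve hypoxanthine. Wild-type CD8+ T cells were held for 24 h in 1 of 3 media, all with dialyzed fetal bovine serum, and live cells were then sorted for RNA-seq. One medium held 2 mM inosine and hypoxanthine, whose concentration is not repeated here because the unit in the labels appears incomplete. Another held 2 mM inosine without hypoxanthine, and the third held 2 mM glucose. Inosine is a purine nucleoside, made of hypoxanthine and ribose. Each medium had 3 libraries, all labelled with 1 batch. The labels do not say whether the 3 came from separate mice or cultures, so the errors measure the spread between libraries, which may be technical. They do not give the state of activation of the cells before the media either.

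Receptors of this superfamily bind trimeric ligands of the TNF family and have no kinase of their own. Those without a death domain, such as CD30, CD27, 4-1BB, OX40, GITR and TNFR2, recruit TRAF adaptors, which lead to NF-kB and other pathways, and most of them act as co-stimulatory receptors on activated T cells. Those with a death domain, such as Fas, TNFR1, DR3 and the TRAIL receptor, can recruit FADD or TRADD and so lead to caspase activation or to NF-kB.

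Between the medium with inosine and hypoxanthine and the medium with inosine, CD30 and CD27 differed in opposite directions. Mean Tnfrsf8 RNA was 13.7-fold lower with hypoxanthine and mean Cd27 RNA was 2.87-fold higher. Tnfrsf4 (OX40) and Tnfrsf18 (GITR) were 1.94-fold and 1.73-fold higher with hypoxanthine. None of the 10 receptors passed the test between the medium with inosine and the medium with glucose. These are levels in bulk RNA, in which fewer cells that express a gene and less of its RNA per cell cannot be told apart.

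Of the 10 genes, 6 lie on chromosome 4, 2 on chromosome 6, 1 on chromosome 14 and 1 on chromosome 19 of the mm10 assembly (GENCODE M21 annotation). Tnfrsf8, at 145267137 to 145315164 on the minus strand, lies 20.3 kb from Tnfrsf1b (145213463 to 145246870, minus strand), and both were lower with hypoxanthine. Tnfrsf4 (156013843 to 156016612, plus strand) and Tnfrsf18 (156026164 to 156028895, plus strand) are 9.55 kb apart further along chromosome 4, and both were higher with hypoxanthine. Cd27 lies on chromosome 6 at 125232622 to 125237010 on the minus strand, 112 kb from Tnfrsf1a, which was not called in any comparison. The 250 bases before the RefSeq start (GRCm38.p6, the assembly also called mm10) are shown for 3 genes: Tnfrsf8 and Cd27, which moved furthest in opposite directions, and Tnfrsf1b, the neighbour of Tnfrsf8. They are written 5′ to 3′ on the strand of the gene. Capitals mark matches on either strand to the letters searched. These were TGANTCA for an AP-1 site and CACGTG for an E-box. GGGCGG was searched as the GC box and GGAAAA as the core of an NFAT site. The NF-kB consensus was searched by its usual degenerate form, TATAAA was searched for the TATA box, and the composite site of ATF4 was searched as TGATGNAA. The windows are, in the same order, chr4:145315165-145315414, chr6:125237028-125237277 and chr4:145246871-145247120, all on the minus strand.
Tnfrsf8: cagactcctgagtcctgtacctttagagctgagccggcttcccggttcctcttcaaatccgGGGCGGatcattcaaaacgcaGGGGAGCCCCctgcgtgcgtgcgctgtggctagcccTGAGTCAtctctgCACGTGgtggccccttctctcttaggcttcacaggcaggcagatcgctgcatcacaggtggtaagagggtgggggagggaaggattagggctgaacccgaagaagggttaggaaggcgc
Cd27: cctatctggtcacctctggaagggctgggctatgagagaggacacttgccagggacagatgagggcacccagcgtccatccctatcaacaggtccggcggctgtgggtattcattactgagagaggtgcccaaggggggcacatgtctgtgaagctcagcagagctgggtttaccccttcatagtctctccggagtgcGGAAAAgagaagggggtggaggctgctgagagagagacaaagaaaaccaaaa
Tnfrsf1b: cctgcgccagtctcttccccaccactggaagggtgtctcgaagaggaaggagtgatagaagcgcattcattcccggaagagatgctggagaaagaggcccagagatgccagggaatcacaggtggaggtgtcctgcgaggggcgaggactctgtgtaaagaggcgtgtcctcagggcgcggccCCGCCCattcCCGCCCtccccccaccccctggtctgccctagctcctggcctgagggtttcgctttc
The Tnfrsf8 window held 4 matches, which begin 189 (GC box), 168 (NF-kB consensus), 132 (AP-1) and 119 bases (E-box) before the start. The Cd27 window held only an NFAT core, 52 bases before the start, and the Tnfrsf1b window held only 2 GC boxes. Over 32851 such windows of all genes, the NF-kB consensus was found in 3.9%, the E-box in 6.02%, AP-1 in 6.75%, the NFAT core in 20.4% and the GC box in 32.7%. RefSeq windows were found for 9 of the 10 genes, 11 windows in all. Among them the NF-kB consensus was in those of Tnfrsf8 and Tnfrsf9, and the E-box in those of Tnfrsf8, Tnfrsf4 and Fas. AP-1 was in those of Tnfrsf8, Tnfrsf9 and Fas, and the NFAT core in those of Cd27, Tnfrsf9, Tnfrsf18 and Tnfrsf25. The GC box was in those of Tnfrsf8, Tnfrsf9, Tnfrsf1b and Fas. Neither the TATA box (12.4% of all windows) nor the ATF4 composite (3.45%) was in any. A match is a run of letters and not a measured binding site.

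Levels are given in FPKM, the authors' fragment values scaled for transcript length and for depth. Over the 9 libraries Tnfrsf9 had the highest mean level at 431 FPKM, followed by Tnfrsf18 at 141, Tnfrsf4 at 136 and Cd27 at 36.5 FPKM. Below these came Tnfrsf1b at 12.9, Tnfrsf1a at 8.31, Tnfrsf10b at 5.83, Tnfrsf8 at 5.14, Fas at 4.26 and Tnfrsf25 at 0.32 FPKM. In the libraries of each medium, the ranges of Tnfrsf4 and Tnfrsf18 overlapped. Within single libraries, Tnfrsf4 was slightly above Tnfrsf18 in every hypoxanthine library and below it in every glucose library. In inosine their order differed between libraries. Tnfrsf8 was the ninth of the 10 with hypoxanthine and the seventh in the other two media. In inosine alone its range overlapped those of Tnfrsf1a above it and Tnfrsf10b below it, and with hypoxanthine Fas and Tnfrsf10b overlapped.

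**Figure D1:**
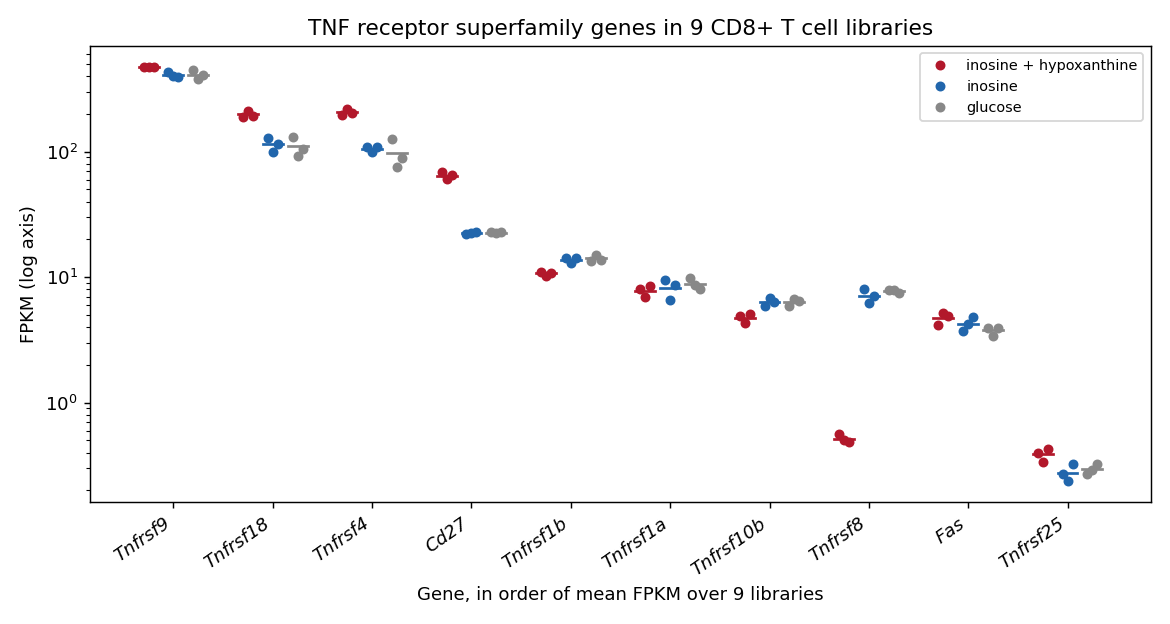
FPKM of the 10 receptor genes on a log axis, in order of mean level, with 1 point per library and a bar at the mean of each medium (n = 3). Within each gene the media run from inosine with hypoxanthine (red) through inosine (blue) to glucose (grey); the red points of Tnfrsf8, at 0.488 to 0.565 FPKM, lie far below the 6 others, and those of Cd27, at 60.2 to 68.3 FPKM, far above.

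Depth ran from 30826396 recovered reads in glucose library 1 to 50056445 in glucose library 3, with 16245 to 17217 genes detected. The cells carried CD8+ T cell transcripts, and Cd4 and Foxp3 reached at most 0.0523 and 0.0553 FPKM in any library. The sum of 5 CD4+ and regulatory T cell markers was 6.88 to 7.67 FPKM with hypoxanthine. It was 4.99 to 7.5 FPKM in inosine and 6.32 to 7.13 FPKM in glucose. Most of it was Zbtb7b, at 4.31 to 6.42 FPKM. The summed level of 5 CD8+ T cell markers (Cd3d, Cd3e, Cd3g, Cd8a and Cd8b1) was itself higher with hypoxanthine, at 1060 to 1140 FPKM, against 543 to 721 FPKM in inosine and 591 to 637 FPKM in glucose, and its part in the receptor differences was not tested. Summed over 5 B cell markers, the level reached at most 1.69 FPKM with hypoxanthine, 1.68 FPKM in inosine and 1.84 FPKM in glucose. The sum of 6 macrophage and monocyte markers was 123 to 160 FPKM with hypoxanthine, 75.0 to 76.6 FPKM in inosine and 64.1 to 86.7 FPKM in glucose, nearly all of it Ly6c2, which CD8+ T cells also express, and Lyz2 was at most 0.0558 FPKM. The sum of 4 measured natural killer cell markers was 8.48 to 10.3 FPKM with hypoxanthine, 9.36 to 11.7 FPKM in inosine and 11.1 to 11.3 FPKM in glucose, mostly Eomes, which CD8+ T cells also express. Dendritic cell markers summed to 1.42 to 2.58 FPKM with hypoxanthine, 0.376 to 0.738 FPKM in inosine and 0.408 to 2.93 FPKM in glucose, mostly Zbtb46 and, in some libraries, Xcr1. Granulocyte and mast cell markers summed to 1.81 to 2.49, 4.72 to 5.76 and 4.18 to 5.62 FPKM in the same order. These were mostly Mcpt8 (0.119 to 0.504, 2.31 to 3.95 and 2.8 to 3.37 FPKM) and Kit. S100a8, S100a9 and Cpa3 reached at most 0.304 FPKM in any library. Mitochondrial transcripts made up 5.84% of FPKM in hypoxanthine library 2 and 6.5% in inosine library 2, and 4.03 to 4.82% in the others.

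CD30, encoded by Tnfrsf8, is a receptor of activated lymphocytes and a marker of some lymphomas. Tnfrsf8 stood at 0.565, 0.501 and 0.488 FPKM with hypoxanthine, against 8.01, 6.22 and 7.14 FPKM in inosine and 7.92, 7.89 and 7.52 FPKM in glucose. The 3 hypoxanthine libraries were low and lay well apart from the 6 others, while the inosine libraries spanned a range that overlapped that of glucose. The level averaged 0.518 ± 0.0411 FPKM with hypoxanthine, 7.12 ± 0.896 FPKM in inosine and 7.78 ± 0.226 FPKM in glucose (SD, n = 3 each). On the log2(FPKM + 1) scale used for all differences below, Tnfrsf8 was lower with hypoxanthine than in inosine by a log2 difference of -2.41 (SE 0.08), and than in glucose by -2.53 (SE 0.08). This scale understates the change of a gene near or under 1 FPKM. With the whole reads recovered from the tables, divided by each library's total, the log2 differences were -3.77 and -3.9. The recovered reads numbered 113, 103 and 79 with hypoxanthine, against 1295, 1197 and 1207 in inosine and 1112, 1240 and 1718 in glucose, so the low level still rests on counted reads in each library.

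CD27 is a co-stimulatory receptor that naive and early memory T cells carry. Cd27 stood at 68.3, 60.2 and 64.7 FPKM with hypoxanthine, against 21.9, 22.5 and 22.9 FPKM in inosine and 22.9, 22.4 and 22.8 FPKM in glucose. The hypoxanthine libraries were all high, and the 6 others lay between 21.9 and 22.9 FPKM. The log2 difference was 1.48 (SE 0.06) from inosine and 1.46 (SE 0.06) from glucose. Exons of Cd27 share 129 bases with the miRNA gene Mir8113 on the same strand, so reads there cannot be assigned to one of them. The ratio of Cd27 to Tnfrsf8, in FPKM, was 120 to 133 in the hypoxanthine libraries, 2.74 to 3.62 in inosine and 2.85 to 3.03 in glucose.

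OX40 and GITR, encoded by the neighbouring genes Tnfrsf4 and Tnfrsf18, are co-stimulatory receptors that appear on T cells after activation. Tnfrsf4 stood at 197, 219 and 202 FPKM with hypoxanthine, against 109, 100 and 109 FPKM in inosine and 127, 75.4 and 89.3 FPKM in glucose. Tnfrsf18 stood at 190, 210 and 194 FPKM with hypoxanthine, against 129, 99.3 and 116 FPKM in inosine and 132, 92.6 and 106 FPKM in glucose. For both genes every hypoxanthine library lay above the 6 others, and glucose library 1 was the highest and glucose library 2 the lowest of its medium. The log2 difference from inosine was 0.95 (SE 0.16) for Tnfrsf4 and 0.79 (SE 0.14) for Tnfrsf18. From glucose it was 1.11 (SE 0.16) for Tnfrsf4 and 0.85 (SE 0.14) for Tnfrsf18. The ratio of Tnfrsf4 to Tnfrsf18 FPKM was 1.03 to 1.04 with hypoxanthine, 0.851 to 1.01 in inosine and 0.814 to 0.957 in glucose. Exons of Tnfrsf18 share 414 of 1524 bases with Gm16008, an antisense gene, and the strand setting of the counting is not given in the sources used here, so reads of the 2 cannot be told apart there.

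4-1BB, encoded by Tnfrsf9, is a co-stimulatory receptor induced on activated CD8+ T cells and the most abundant transcript of the set. Tnfrsf9 stood at 476, 471 and 472 FPKM with hypoxanthine, against 431, 404 and 394 FPKM in inosine and 444, 378 and 410 FPKM in glucose. The hypoxanthine libraries lay above all others, but by little: the log2 difference was 0.21 (SE 0.08) from inosine and from glucose, and the gene did not pass the threshold in either. Tnfrsf9 made up 47.7 to 49.5% of the summed FPKM of the 10 receptors with hypoxanthine, 57.7 to 60.9% in inosine and 57.9 to 61.9% in glucose. The sum itself was 960.1 to 987.5 FPKM with hypoxanthine, 663.3 to 733.2 FPKM in inosine and 610.5 to 767.3 FPKM in glucose.

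The TNF receptors TNFR1 (Tnfrsf1a) and TNFR2 (Tnfrsf1b) both bind TNF, and only TNFR1 has a death domain. Tnfrsf1b stood at 11, 10.2 and 10.8 FPKM with hypoxanthine, against 14.3, 13.0 and 14.1 FPKM in inosine and 13.5, 15.1 and 13.6 FPKM in glucose. All 3 hypoxanthine libraries were below the others, with a log2 difference of -0.34 (SE 0.07) from inosine and -0.37 (SE 0.07) from glucose. Tnfrsf1a stood at 8.01, 6.96 and 8.52 FPKM with hypoxanthine, against 9.55, 6.56 and 8.59 FPKM in inosine and 9.88, 8.74 and 8.01 FPKM in glucose. The ranges of the 3 media overlapped, and the log2 difference from inosine was -0.06, with a 95% interval of -0.36 to 0.25.

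Tnfrsf10b encodes the mouse death receptor for TRAIL. It stood at 4.91, 4.28 and 5.06 FPKM with hypoxanthine, against 5.93, 6.81 and 6.38 FPKM in inosine and 5.87, 6.76 and 6.5 FPKM in glucose. The hypoxanthine libraries were below the others, with a log2 difference of -0.36 (SE 0.08) from both media. This was the call that held least well: it was lost in the comparison with glucose without hypoxanthine library 2 (log2 difference -0.3), without glucose library 2 (-0.32) or without glucose library 3 (-0.35). In the comparison with inosine it was lost without the 2 libraries of highest mitochondrial share (-0.26). In both comparisons it was also lost with only the 2 media fitted and library number as a block (-0.36 each).

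Fas, the receptor of Fas ligand, stood at 4.19, 5.21 and 4.89 FPKM with hypoxanthine, against 3.71, 4.2 and 4.84 FPKM in inosine and 3.95, 3.39 and 3.94 FPKM in glucose. Its hypoxanthine libraries overlapped those in inosine and lay above those in glucose, with log2 differences of 0.14 (SE 0.1) and 0.27 (SE 0.1), neither past the threshold. Tnfrsf25, which encodes DR3, was hardly detected, at 0.4, 0.337 and 0.425 FPKM with hypoxanthine, against 0.27, 0.237 and 0.323 FPKM in inosine and 0.271, 0.291 and 0.327 FPKM in glucose. The hypoxanthine libraries lay above the 6 others, but it rested on 22 to 44 recovered reads per library and did not pass the threshold. For Fas and Tnfrsf25 the deposited FPKM did not follow the recovered reads closely across libraries (SD of the log2 ratio 0.041 and 0.157, against at most 0.013 for the other 8), and the part of this in their differences was not tested.

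**Figure D2:**
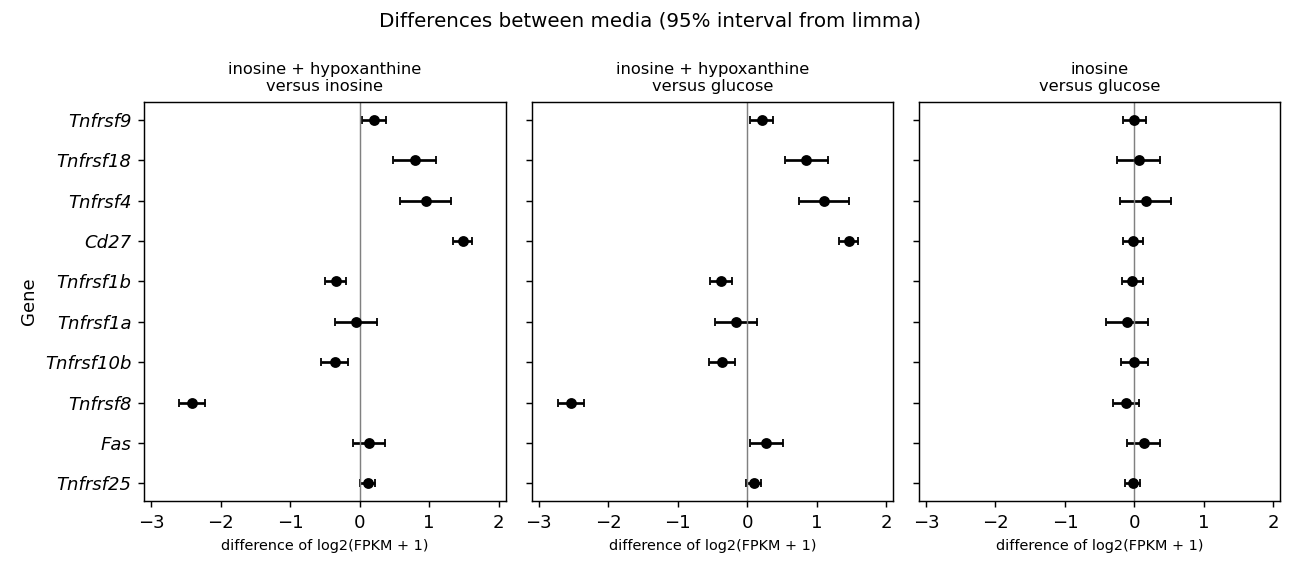
Difference of mean log2(FPKM + 1) for the 10 receptor genes in the 3 comparisons, with 95% intervals from the limma fit (n = 3 libraries per medium). Tnfrsf8 lies at -2.41 and -2.53 and Cd27 at 1.48 and 1.46 in the 2 comparisons with hypoxanthine, while every interval for inosine versus glucose includes 0.

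By limma at an adjusted p under 0.05 over all 20618 genes, 6 of the 10 receptors were called between hypoxanthine and inosine: Tnfrsf4, Tnfrsf18 and Cd27 higher, and Tnfrsf8, Tnfrsf1b and Tnfrsf10b lower. Over all genes 21.3% were called, 11.7% higher and 9.59% lower. Among the 9947 genes with a mean of 1 FPKM or more, as 9 of the 10 receptors have, the same fit called 32.9%, 16.9% higher and 16.0% lower. Since the genes were gathered from this contrast nothing is read from their larger share. For 8 of the 10 receptors every hypoxanthine library lay to one side of every inosine library, as was so for 34.4% of all genes. Between hypoxanthine and glucose, which uses the same 3 hypoxanthine libraries, the same 6 receptors were called in the same directions, with a background of 20.3% of all genes (10.8% higher and 9.55% lower) and 30.9% of those at 1 FPKM or more. Hypoxanthine and glucose libraries were fully apart for 9 receptors, and for 37.6% of all genes. The median log2 difference over the 10 receptors was 0.13 from inosine and 0.15 from glucose, beside 0.002 and 0.001 over all genes.

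Between inosine and glucose, without hypoxanthine, 0 of the 10 receptors were called by limma, with a background of 0.0097% of all genes called. By limma voom on recovered reads 0 receptors were called, as were 0 of 20512 genes. In the limma fit 0 receptors had an unadjusted p under 0.05, and the share of all genes for that was not counted. The libraries of the 2 media overlapped for all 10 receptors, while 5.05% of all genes had no overlap. The adjusted p was 1 for each receptor. Each gene has its own 95% interval for the log2 difference: it was -0.16 to 0.12 for Cd27, -0.31 to 0.07 for Tnfrsf8 and, as the widest, -0.21 to 0.53 for Tnfrsf4. A p that misses the threshold does not show equal levels, and differences within a gene's interval were not resolved.

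The ligands were examined next. Of the 9 ligands of these receptors that the tables hold, 4 were higher and 2 lower with hypoxanthine than in inosine, and 3 did not pass the test. Over all genes 21.3% were called, and 32.9% of those at 1 FPKM or more, and with 9 ligands, named after their values were seen, nothing particular to ligands is read from the count. The same counts held against glucose, where 20.3% of all genes were called, and 30.9% of those at 1 FPKM or more. Between inosine and glucose 0 of 9 passed. Tnfsf8, which encodes the CD30 ligand, stood at 45.2, 44.9 and 48.6 FPKM with hypoxanthine, against 13.2, 15.0 and 12.7 FPKM in inosine and 11.4, 13.4 and 13.9 FPKM in glucose. The CD30 ligand was thus 3.39-fold higher with hypoxanthine than in inosine, in the libraries in which its receptor was 13.7-fold lower (log2 difference of Tnfsf8 1.69, SE 0.09, limma adjusted p = 1.9e-05). Cd70, the ligand of CD27, stood at 1.88, 1.79 and 2.07 FPKM with hypoxanthine, against 0.772, 0.244 and 0.263 FPKM in inosine and 0.869, 0.214 and 0.308 FPKM in glucose. It was low in every library and moved in the direction of its receptor, with a log2 difference of 1.05 from inosine (SE 0.18, limma adjusted p = 0.0039).

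Fasl, the death ligand of cytotoxic lymphocytes, stood at 20.4, 22.8 and 20.6 FPKM with hypoxanthine, against 11, 13.1 and 12.7 FPKM in inosine and 11.6, 12.2 and 12.1 FPKM in glucose. It was higher with hypoxanthine by 0.74 (SE 0.08, limma adjusted p = 0.00038), while the difference of Fas did not pass the threshold. Tnfsf10 (TRAIL) averaged 7.9 ± 0.231 FPKM with hypoxanthine, 3.04 ± 0.157 FPKM in inosine and 2.8 ± 0.395 FPKM in glucose, a rise of 1.14 over inosine (SE 0.08, limma adjusted p = 6.7e-05). Its receptor gene Tnfrsf10b was lower in the same libraries. The ligands of TNFR1 and TNFR2 were lower with hypoxanthine. Lta (lymphotoxin alpha) stood at 53.7, 52.8 and 51.6 FPKM with hypoxanthine, against 177, 298 and 240 FPKM in inosine and 196, 274 and 228 FPKM in glucose. The hypoxanthine libraries lay close together and far below the 6 others. The log2 difference of Lta from inosine was -2.12 (SE 0.18, limma adjusted p = 0.00014), and that of Tnf was -0.56 (SE 0.12, limma adjusted p = 0.0092). Tnfsf9, the 4-1BB ligand, averaged 6.29 FPKM with hypoxanthine, 5.24 FPKM in inosine and 6.22 FPKM in glucose, and Tnfsf4, the OX40 ligand, 8.84, 9.17 and 8.09 FPKM in the same order. Neither passed the test. Tnfsf15, the ligand of DR3, averaged at most 0.0114 FPKM in any medium. Lta, Tnfsf8 and Fasl were named by a rule of size. The other ligands in this account were named because they bind a receptor of the set, a choice made after their values were seen. The adjusted p-values of the ligands come from the contrast behind these choices and are not independent support.

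**Figure D3:**
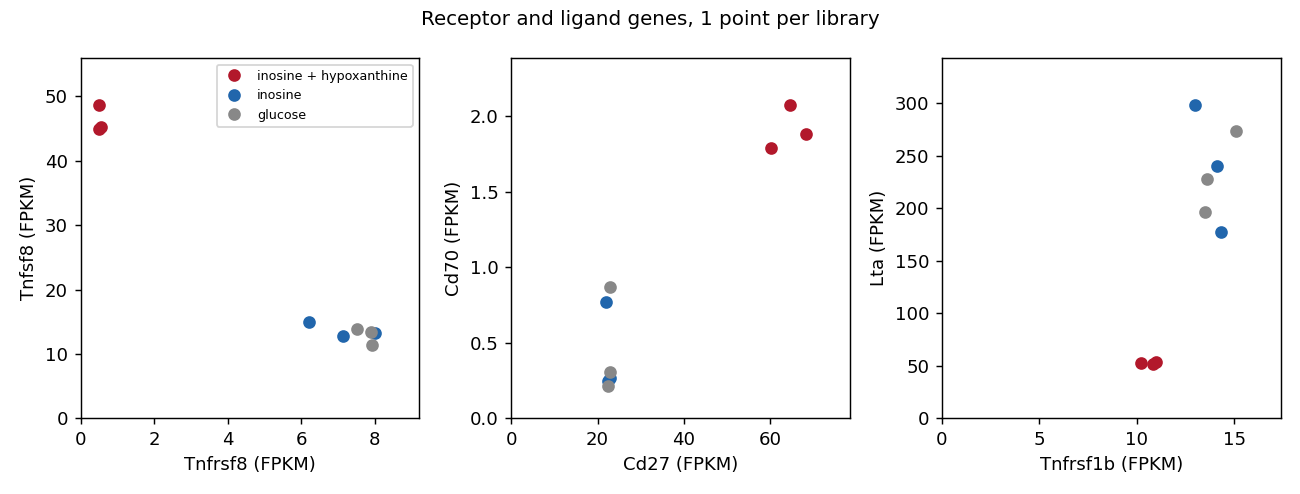
FPKM of 3 ligand genes (vertical) against a receptor gene that binds each (horizontal), 1 point per library and 3 per medium (inosine with hypoxanthine red, inosine blue, glucose grey). The hypoxanthine libraries combine the lowest Tnfrsf8 with the highest Tnfsf8 (44.9 to 48.6 FPKM), the highest Cd27 with the highest Cd70, and the lowest Tnfrsf1b with the lowest Lta (51.6 to 53.7 FPKM).

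Over all 16 measured ligands of the family, 6 were higher, 3 were lower and 7 did not pass between hypoxanthine and inosine, with a median log2 difference of 0.02 (0.002 over all genes). Among the 15 other measured receptors of the superfamily, 2 were higher, 5 were lower and 8 did not pass, with a median of -0.01. Of all genes 11.7% were higher and 9.59% lower, and at 1 FPKM or more, as 10 of these ligands and 9 of these receptors are, 16.9% were higher and 16.0% lower. Tnfrsf14 (HVEM, a receptor that binds LIGHT and BTLA) averaged 10.1 ± 0.308 FPKM with hypoxanthine, 5.44 ± 0.716 FPKM in inosine and 5.65 ± 1.16 FPKM in glucose. It was higher than in inosine by 0.79 (SE 0.13, limma adjusted p = 0.0032). Tnfrsf26, a close relative of the mouse decoy TRAIL receptor genes Tnfrsf22 and Tnfrsf23, averaged 4.74 ± 0.472 FPKM with hypoxanthine, 7.06 ± 1.14 FPKM in inosine and 6.59 ± 0.624 FPKM in glucose. Its log2 difference from inosine was -0.49 (SE 0.11, limma adjusted p = 0.017), and how reads were shared among these similar genes is uncertain. Tnfrsf13b (TACI) averaged 11.8 FPKM with hypoxanthine, 11.3 FPKM in inosine and 11.5 FPKM in glucose and did not pass. Tnfrsf14, Tnfrsf26 and Tnfrsf13b were named by the size of their difference from inosine, so the adjusted p-values printed are not independent support.

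Of 25 NF-kB factors and regulators, 11 were higher, 1 was lower and 13 did not pass between hypoxanthine and inosine. The median log2 difference was 0.32 (0.002 over all genes). All 25 average at least 1 FPKM, and the 48.0% called stand beside 32.9% of all genes at that level, and nothing particular to the list is read from the count. Against glucose 9 were higher, 1 was lower and 15 did not pass, with a median of 0.19 (0.001 over all genes). In that comparison 15.0% of genes at 1 FPKM or more were higher and 15.9% lower, and nothing is read from the count. Rel, the c-Rel subunit, averaged 17.9 ± 0.989 FPKM with hypoxanthine, 5.14 ± 1.01 FPKM in inosine and 5.34 ± 0.677 FPKM in glucose, a log2 difference of 1.63 from inosine (SE 0.12, limma adjusted p = 7.6e-05). Nfkb2 and Relb, which encode the p100 precursor and RelB of the non-canonical pathway, were higher than in inosine by 1.19 (SE 0.22, limma adjusted p = 0.0051) and 1.13 (SE 0.15, limma adjusted p = 0.0012). Rel, Nfkb2 and Relb were named by the size of this difference, so their adjusted p-values are not independent support. Inosine library 2 had the lowest value of Nfkb2, at 25.6 FPKM beside 49.0 and 39.3 FPKM in the other two of its medium, and the hypoxanthine libraries at 96.5, 73.0 and 86.8 FPKM lay above all of these.

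Between hypoxanthine and inosine, 2 of 12 TRAF adaptors, 3 of 12 death domain genes and 1 of 5 shedding genes and partners were called. These shares were near that of all genes (21.3%) or below that of genes at 1 FPKM or more (32.9%). Nothing about these lists is read from them. Of 12 TRAF adaptors and ubiquitin ligases, 2 were higher and 0 lower between hypoxanthine and inosine (median log2 difference 0). These were Traf4, at 33.6 ± 3.05 FPKM with hypoxanthine and 17.5 ± 2.77 FPKM in inosine, and Birc2 (cIAP1), at 16.1 ± 1.46 FPKM with hypoxanthine and 9.69 ± 0.856 FPKM in inosine. Traf1, an adaptor of 4-1BB and CD30, averaged 72.0 FPKM with hypoxanthine and 88.9 FPKM in inosine and did not pass. Of 12 death domain signalling genes, 0 were higher and 3 were lower, with a median of -0.06. Bid, a BH3-only protein cleaved by caspase-8, averaged 11.1 ± 0.195 FPKM with hypoxanthine and 15.3 ± 1.51 FPKM in inosine, and the kinase gene Ripk1 averaged 11 ± 0.194 FPKM with hypoxanthine and 13.6 ± 0.879 FPKM in inosine. Daxx, which binds Fas, averaged 20.1 ± 1.79 FPKM with hypoxanthine and 16.2 ± 2.58 FPKM in inosine and did not pass. Of 5 genes for shedding enzymes and partners of these receptors, 1 was higher: Cd81, a tetraspanin, at 9.35 ± 0.341 FPKM with hypoxanthine and 3.19 ± 0.29 FPKM in inosine. Adam10 and Adam17, the proteases that shed many receptors of the family, did not pass, at 18.7 and 13.9 FPKM with hypoxanthine and 15.1 and 13.4 FPKM in inosine. Against glucose, 3 TRAF genes were higher and 0 lower, and 2 death domain genes were higher and 3 lower. In the same comparison 6 ligands were higher and 4 lower, and 2 of the other receptors were higher and 7 lower. Of all genes 10.8% were higher and 9.55% lower against glucose, and 30.9% of those at 1 FPKM or more were called. Nothing about the lists is read from these counts. None of the genes in these lists passed between inosine and glucose.

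**Figure D4:**
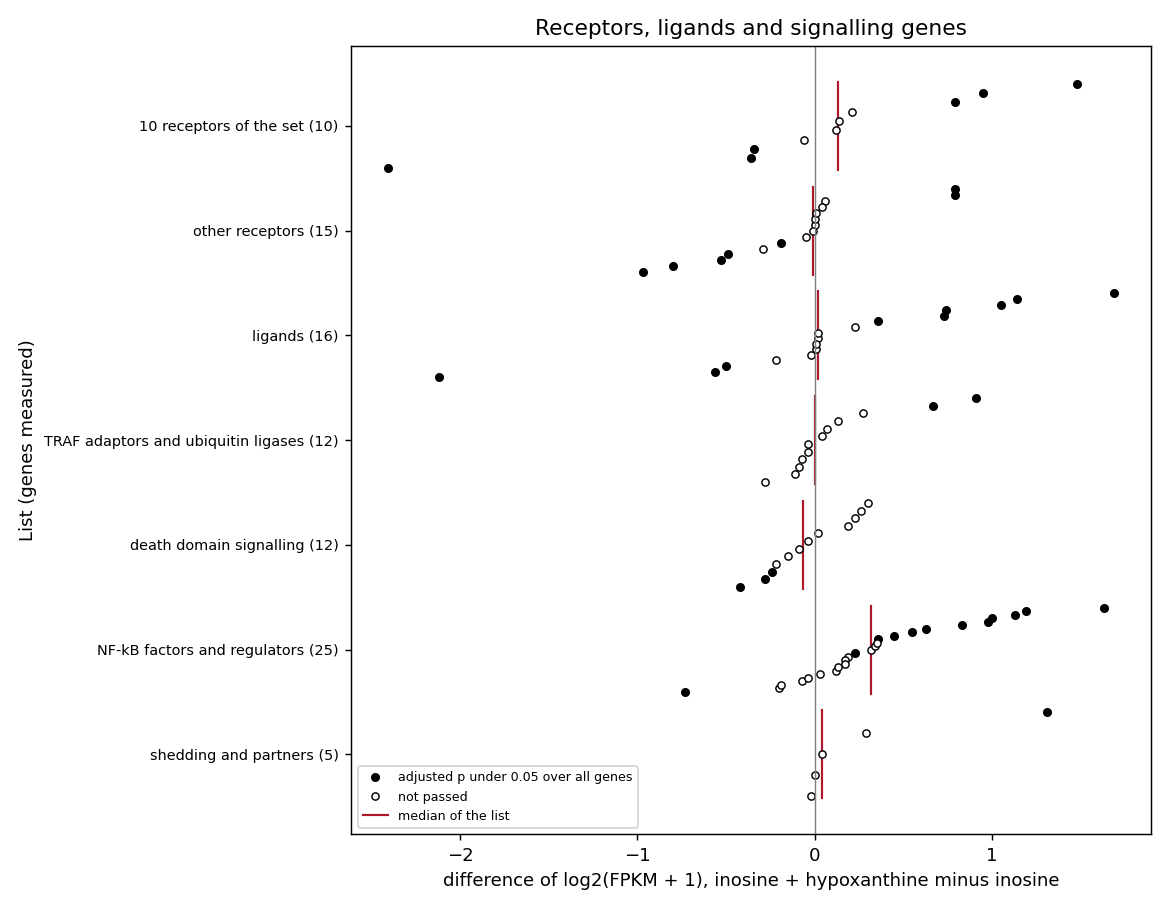
Difference of mean log2(FPKM + 1), inosine with hypoxanthine minus inosine, for the 10 receptors and 6 lists of related genes, 1 point per gene, stacked by size within each list. Filled points passed an adjusted p under 0.05 over all genes and red bars are medians. The receptors spread from -2.41 to 1.48. Of 25 NF-kB genes 11 were higher, beside 16.9% of all genes at 1 FPKM or more, and nothing is read from that count.

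The genes whose profile over the 9 libraries was most like that of Tnfrsf8 or Cd27 were picked among 6823 genes averaging 5 FPKM or more. Likeness was the root mean square (RMS) difference between log2(FPKM + 1) profiles, each centred on its own mean. For Tnfrsf8 these were Acvrl1 and Gzmg (RMS difference 0.18 each) and Pilrb1 (0.2). Acvrl1, an activin-type receptor of the TGF-beta family, averaged 0.377 FPKM with hypoxanthine, 8.54 FPKM in inosine and 8.85 FPKM in glucose. Gzmg, a granzyme gene of a cluster of similar genes, averaged 5.44 FPKM with hypoxanthine, 35.4 FPKM in inosine and 33.9 FPKM in glucose. For Cd27 they were Tspan32, a tetraspanin gene (0.07), Tmc6 (0.09) and Ipcef1 (0.1). Tspan32 averaged 14.0 FPKM with hypoxanthine, 4.21 FPKM in inosine and 4.45 FPKM in glucose. The libraries fall into 2 levels for all of these genes, hypoxanthine and the rest, so likeness here rests mostly on that single step.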

How the data were processed

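The submitters' processing notes name the mm10 genome and the tools DESeq2 1.38.3, featureCounts, HISAT2 and Subread 2.0.1, with no account of their roles. FPKM values, given for each gene in each library, were computed by the authors and deposited. They also hold, as deposited, a normalized read signal averaged over each medium's 3 libraries, and the authors' log2 fold changes and p-values, whose values are not printed here.

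All differences were computed from FPKM with limma 3.58.1 (trend and robust) in R 4.3.3. A single fit of log2(FPKM + 1) took in the 9 libraries and the 20618 genes, with no filter, 6 residual degrees of freedom and calls at a Benjamini-Hochberg adjusted p under 0.05 over all genes. The step was also run on simulated data with independent noise for each gene and library. That setting holds no deviations shared by the genes of a library, so it cannot show how the step handles them. Whole reads were recovered for 20512 genes (99.49%) by solving each medium's 2 deposited signals for whole numbers, to a tolerance of 0.001. They served for depth and for limma voom, which called 4644 genes between hypoxanthine and inosine. The recovery took the 2 mates of a pair as 2 reads, so fragments are fewer than reads.

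The 10 receptors, the lists and the rule for named genes were chosen with earlier results of these data known. Adjusted p-values printed for genes of the lists come from the contrast used to name them and are not independent support. That rule takes from each list up to 3 genes averaging 5 FPKM or more and with the largest difference between hypoxanthine and inosine, and the 3 genes most like Tnfrsf8 and Cd27. Alternatives changed the pseudocount (0.1 and 5), a filter, the scaling, the samples fitted, a replicate block and the libraries kept.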

Additional observations from a re-analysis of the deposited data

How the results depend on the processing

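The calls of the 6 receptors with hypoxanthine against inosine held in all runs that left out 1 library (6 called each time), while those against glucose numbered 5 to 6, the lost call being Tnfrsf10b. Over all genes, leaving out 1 library gave 2757 to 4487 calls for hypoxanthine versus inosine, 2677 to 4879 for hypoxanthine versus glucose (both lowest without hypoxanthine library 3) and 1 to 7 for inosine versus glucose, where 0 receptors were called each time. In this last comparison the 2 called genes became 1 with a pseudocount of 5, with the replicate block or without the 2 libraries of highest mitochondrial share, and 0 with a filter at a mean of 1 FPKM, with only the 2 media fitted, with only those and the block, or with limma voom on recovered reads.

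Whether library numbers pair the samples was not settled. Deviations of same-numbered libraries correlated at 0.41, 0.64 and 0.02 between hypoxanthine and inosine. They correlated at 0.08, -0.2 and -0.06 between hypoxanthine and glucose, and at 0.4, 0.26 and -0.27 between inosine and glucose. For libraries of different numbers the correlations were -0.55 to 0.39, -0.34 to 0.32 and -0.41 to 0.32 in the same order. A culture shared by library number was not tested. With the replicate block and only the 2 media fitted, hypoxanthine versus glucose gave 2110 calls in place of 4192 and 2 receptors in place of 6 (Tnfrsf8 and Cd27). The log2 differences of the other 4 (Tnfrsf4 1.11, Tnfrsf18 0.85, Tnfrsf1b -0.37 and Tnfrsf10b -0.36) stayed as they were by construction. Each medium holds every library number, so a block alters the error and cannot alter the difference. Against inosine that fit gave 3924 calls in place of 4382 and again called 6 receptors, but not the same 6. The call of Tnfrsf10b (-0.36) was lost and one of Tnfrsf9 (0.21) was gained, with log2 differences again fixed by construction.

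Of single values, 22 changed sign, all in differences that were not called. For inosine versus glucose, scaling by median of ratios gave 0.02 for Tnfrsf9 and 0.01 for Tnfrsf10b, voom gave 0.05 for Tnfrsf25, and leaving out the 2 libraries of highest mitochondrial share gave 0.01, 0.03, 0.01 and 0 for Tnfrsf9, Tnfrsf1a, Tnfrsf1b and Tnfrsf25. Over the runs without 1 library these differences ranged from -0.06 to 0.06 for Tnfrsf9, 0 to 0.37 for Tnfrsf4, -0.06 to 0.2 for Tnfrsf18, -0.21 to 0.03 for Tnfrsf1a, -0.05 to 0.02 for Tnfrsf1b, -0.05 to 0.04 for Tnfrsf10b and -0.05 to 0 for Tnfrsf25. For hypoxanthine versus inosine that of Tnfrsf1a ranged from -0.19 to 0.05, above 0 (0.02 and 0.05) without hypoxanthine library 2 or inosine library 1. The cause was not tested. With 3 libraries per medium, and 22 to 44 reads for Tnfrsf25, small differences were not detectable.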
